A study of Mus musculus with 2 samples.

Results

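The regions described here are the stretches of the promoter arrays to which the array annotation gives no gene. Of 474380 probes on 2 arrays, 7916 carried their own coordinate in place of a gene symbol, and the 7627 of them on chromosomes 1 to 19 were kept, which leaves out 242 on chromosome X and 47 from mitochondrial DNA. They were chosen by this annotation and not by any measured value. Probes whose midpoints lay within 1000 bp of each other were joined, which gave 560 regions of 1 to 48 probes (median 9). Of these, 272 lay on array 1 (3867 probes) and 288 on array 2 (3760 probes).

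Both samples were E14 cells, a line of mouse embryonic stem cells, grown without feeders and with no genotype or treatment contrast. On each array, Cy5 marked DNA from the Tcf3 chromatin immunoprecipitate and Cy3 marked the input. Since the 2 arrays carry different probes of a single promoter set, each probe was measured once. No replicate and no control immunoprecipitate was analysed here, so that precision is limited by the number of arrays. The labels list several antibodies without assigning one to the arrays, and Tcf3 is taken from the sample titles.

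Tcf3 is the older name of Tcf7l1, a Tcf/Lef family protein that binds DNA. Its HMG box recognises short sequences that begin with CTTTG, and it represses genes until Wnt signalling brings beta-catenin to Tcf/Lef sites. In mouse embryonic stem cells it is known to occupy many genes together with pluripotency factors and to hold back self-renewal genes.

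Although the arrays name no gene for these regions, many of them held promoters. In 156 regions, 268 probes matched RefSeq promoter windows exactly over their whole length (GRCm38.p6, from 250 bases before to 50 after a start site), and these windows belonged to 180 genes. Of these genes, 23 were named on probes elsewhere, and 157 matched no array name. Since 726 of 18517 array names could not be matched to a symbol, some of the 157 may be on the arrays under another name. Another 7 regions only reached into a window with the end of a probe, a looser match that was added after the data were seen. This gave 163 regions with a promoter match and 397 without one. A region without a match may still hold a start site that no probe covers or that RefSeq does not list. The same matching over named probes returned the name that the array gives in 81.7% of 21134 pairs of probe and window. The sources used here do not give the genome build of the arrays, so positions below are those of the array unless GRCm38.p6 is named.

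The regions without a name resembled the rest of the arrays in composition. Their probes had a median GC content of 39.7% against 40.4% for named probes, and 0.71 CpG per probe on average in both. In some spots the scanner software put a surrogate where a signal was not above background, and the share of spots measured without one in either channel was 55.0% against 58.8%. This share was 66.0% on array 1 and 43.6% on array 2. Values below are log2 ratios of immunoprecipitate over input from such measured spots, centred on the median of each array.

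The probes of the highest sets fell into 2 kinds, which the sequences show directly. A set joins a probe to the closest measured probe on either side, passing over surrogate spots, if that lies within 1000 bp. Its value is the mean of these 2 to 3 log2 ratios. Where all spots are used below, surrogate spots count as neighbours too. The sequences are printed as the array files give them, 5′ to 3′, in lower case. Capitals mark 4 Tcf/Lef motifs on either strand, namely CTTTGAA and its variant CTTTGAT as well as CTTTGTA and its variant CTTTGTT. The first kind is rich in G, C and CpG and lies at the start sites of genes, here St7 and Wnt5b, and beside the named probes of Rab31:
St7 probe at 3.82, chr6:17634626-17634670: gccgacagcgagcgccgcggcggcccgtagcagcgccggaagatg
St7 probe at 0.13, chr6:17634730-17634774: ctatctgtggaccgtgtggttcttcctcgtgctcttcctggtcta
St7 probe at 3.64, chr6:17635051-17635095: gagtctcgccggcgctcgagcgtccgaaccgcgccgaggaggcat
Wnt5b probe at 2.41, chr6:119569109-119569153: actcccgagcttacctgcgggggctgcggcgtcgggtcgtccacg
Wnt5b probe at 3.79, chr6:119569385-119569429: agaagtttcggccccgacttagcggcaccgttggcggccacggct
Wnt5b probe at 0.84, chr6:119569696-119569740: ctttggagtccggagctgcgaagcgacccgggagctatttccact
Rab31-side probe at 3.36, chr17:64000347-64000391: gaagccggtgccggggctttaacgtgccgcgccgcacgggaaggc
Rab31-side probe at 2.65, chr17:64000515-64000559: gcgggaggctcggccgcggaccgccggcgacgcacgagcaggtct
Rab31-side probe at 2.93, chr17:64000700-64000744: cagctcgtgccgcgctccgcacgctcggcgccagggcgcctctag

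The second kind is rich in A and T, holds few CpG, and matched no promoter window. The sets shown are the highest on chromosomes 5, 2, 15 and 6, and a probe with CTTTGTT from another chromosome 15 region, 95633 bp from the nearest name, Lass5:
chromosome 5 probe at 2.96, chr5:16861075-16861134: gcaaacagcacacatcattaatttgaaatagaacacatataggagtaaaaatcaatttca
chromosome 5 probe at 2.27, chr5:16861226-16861285: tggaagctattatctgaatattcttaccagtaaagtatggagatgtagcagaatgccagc
chromosome 2 probe at 2.78, chr2:58107944-58108003: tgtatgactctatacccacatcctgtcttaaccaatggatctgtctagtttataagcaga
chromosome 2 probe at 1.95, chr2:58108136-58108195: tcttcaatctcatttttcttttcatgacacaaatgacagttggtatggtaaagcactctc
chromosome 15 probe at 2.83, chr15:96644835-96644894: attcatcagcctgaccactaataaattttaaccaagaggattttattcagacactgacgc
chromosome 15 probe at 1.85, chr15:96645352-96645402: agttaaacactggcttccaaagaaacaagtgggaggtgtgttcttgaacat
chromosome 6 probe at 2.59, chr6:41049221-41049280: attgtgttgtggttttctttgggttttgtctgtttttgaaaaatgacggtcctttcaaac
chromosome 6 probe at 1.57, chr6:41049363-41049416: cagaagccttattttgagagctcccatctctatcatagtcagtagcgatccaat
chromosome 6 probe at 2.57, chr6:41049472-41049518: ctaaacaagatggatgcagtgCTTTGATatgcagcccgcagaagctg
other chromosome 15 probe at 2.46, chr15:99858227-99858286: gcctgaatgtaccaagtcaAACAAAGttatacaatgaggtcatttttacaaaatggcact

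How many of the unnamed probes stood out from the array's own scatter was asked with a neighbourhood rule. A probe was called when its set mean had an upper-tail probability under 0.001 against the scatter of values below the array's median, with further conditions on single probes given under the processing. With measured spots, 76 of 3979 unnamed probes were called, or 1.91%, beside 1.56% of all probes tested. They lay in 38 of the 560 regions, of which 14 had 1 called probe, 15 had 2 and 9 had 3 or more. On array 1 the unnamed probes were called as often as the whole array (40 probes, 1.62% against 1.63%). On array 2 their share was higher (36 probes, 2.39% against 1.46%), and with the GC trend subtracted the 2 shares were closer, 0.929% against 0.888%. No test of these differences is possible with a single array each. The median log2 ratio of unnamed probes was 0.00 on array 1 and 0.02 on array 2.

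The values rose with GC content from about 45% upward, in unnamed and named probes. The median of unnamed probes was 0.02 between 45 and 50% GC, 0.26 between 50 and 55%, 0.40 between 55 and 60% and 0.73 between 60 and 65%. Unnamed probes of 65% GC or more had a median log2 ratio of 1.35 (187 tested), against 1.21 in named probes, and 19.3% of them were called against 16.7%. Between 40 and 45% GC the median was -0.28, against -0.24, and 0.352% of unnamed probes were called against 0.45%. At the low end, named probes had medians of 0.67 below 30% GC, 0.19 from 30 to 35% and -0.25 from 35 to 40%. Of these named probes 2.73%, 2.55% and 0.917% were called. Unnamed probes had medians of 0.01, 0.03 and -0.23 there, with 1 of 15, 1 of 92 and 14 of 970 called. Called unnamed probes had a median GC content of 64.4% and held 4.13 CpG per probe. When the median of each 2% GC bin was subtracted, 64 unnamed probes were called (1.61%, beside 1.48% of all probes), in 41 regions, and their median GC content was 38.3%. Of the 38 regions called with measured spots, 17 were also called after this subtraction, which is 44.7% of the first list and 41.5% of the second.

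Divided by the GC content of their highest set, the 38 called regions were of unlike make-up. In 25 the set exceeded 60% GC, with 5.19 CpG per probe, and 19 of these regions held a promoter match. As regions, 16 of the 25 were also called with all spots, and 7 of the 25 after the GC trend was subtracted. In 5 of the 7 a probe of that same set was called, and in the other 2, at Ccser1 and Kcmf1, the calls lay elsewhere in the region. In 9 regions the set was at 45% GC or less, with 0.278 CpG per probe, and 0 of them had a promoter match. Each of those 9 was called after the subtraction too, and 7 of the 9 had a higher set mean there. Named probes had medians of -0.25 and -0.24 between 35 and 45% GC, and of 0.69 and 1.21 above 60%. Subtracting such medians raises values in the first range and lowers them in the second. The direction of these shifts was thus fixed beforehand. The scatter that the rule uses was also smaller after the subtraction, so that a lower set mean sufficed for a call. The remaining 4 regions, between these limits, all had a promoter match, and 1 of them was called after the subtraction. Of the 9 regions poor in GC, 6 rested on sets of 2 measured probes.

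Among the sets rich in GC, the one beside Rab31 had the highest mean, in a region that matched no promoter window. Rab31 encodes a small GTPase of vesicle transport. The 3 probes of the set reached 3.36, 2.65 and 2.93, a set mean of 2.98 ± 0.35 (SD over 3 probes, a spread along the DNA that says nothing of error between experiments), or 7.90-fold. The highest set over all named Rab31 probes was 0.89 ± 1.03, not called. The nearest probe that carries the name Rab31 lay 242 bp beyond the first probe of the unnamed set and stood at -0.86. It was the single named probe within 1000 bp of the region, so the place of the step from low to high values rests on that spot. After GC subtraction the unnamed set mean was 1.54 and no probe was called.

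At Bahd1, which encodes a protein of silent chromatin, the probe 160 bp before the start site stood at 1.49, and those 67 and 390 bp after it at 2.93 and 3.42. The set mean was 2.61 ± 1.00 (SD, 3 probes; chr2:118642282-118642876). Both called probes lay inside the transcribed side of the start site, and over the 43 measured probes of the region values ran down to -0.91, with a median of 0.07. After GC subtraction the highest set mean of the region was 1.16, not called.

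Rnf187, a RING-type ubiquitin ligase gene matched by a probe end, had even values of 2.63, 2.66 and 2.39, so that the mean of 2.56 ± 0.15 had the narrowest spread among the highest sets of 3. Its probes lie between tiles named for other genes, and the nearest name, the histone gene Hist3h2ba at 114 bp, had its highest set mean at 1.71, not called. The Rnf187 region was not called after GC subtraction (1.43).

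Ccser1, a coiled-coil protein gene, shares its region with the noncoding gene A730020E08Rik, and the region held both kinds of site. In the highest set, a probe in the Ccser1 promoter window reached 3.65 and the next ones, 171 and 49 bp after the start of A730020E08Rik, 1.55 and 2.11, with a set mean of 2.43 ± 1.09. In the same region, 3 more called probes with a GC content of 30 to 36.7% stood at 1.60, 2.01 and 1.94 on the far side of the region's centre. After GC subtraction the highest set mean was 2.15 and 4 probes were called, while the probes of the GC-rich set had 1.99, 0.40 and 0.83, none of them called.

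Naa40, which encodes an acetyltransferase of histone N termini, showed 2.41 and 2.66 at 218 and 55 bp after its start site and 1.56 at 52 bp before it. The set mean of 2.21 ± 0.58 became 1.52 after GC subtraction, with 1 probe still called. Trnp1, a nuclear protein gene of the developing cortex, was carried by a single probe at 4.35, 400 bp after the start site, between neighbours at 1.37 and 0.78. Its set mean was therefore 2.17 ± 1.91, and 1.20 with no call after GC subtraction. The 4.35 was the highest value of any called unnamed probe. Its input signal was 2873, against a median of 421 over the unnamed probes of array 1.

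Lower in the order came called regions that hold promoters of further genes, listed here after their values were seen. These were Trim67 (set mean 2.09), Gm13375 (2.04), Ipo9 (1.96), Rnf180 (1.96), C2cd4b (1.92), Kcmf1 (1.89), Lrrfip2 (1.77), Jade1 (1.73), Slc22a15 (1.69), Gm50341 (1.62), Rasl11b (1.55), Tbc1d9b (1.39), Akap1 (1.31) and Oxsr1 (1.28). Neighbours in this order did not differ beyond the spread within their sets. In most of them the set lay within 500 bp of the start site, but that of C2cd4b lay 493 to 1242 bp after it and that of Kcmf1 842 to 1191 bp after it. The Gm13375 region also holds the promoter of Arhgap21, whose start-site probes were not called. Of the regions in this list, those of Ipo9 and Kcmf1 were also called after GC subtraction. With all spots, those of Rnf180, C2cd4b, Lrrfip2, Gm50341, Tbc1d9b, Akap1 and Oxsr1 were not called. The Kcmf1 region lies 102941 bp from the nearest named probe, which belongs to Tcf3 itself, and its 3 probes were even at 1.79, 1.90 and 1.97. After GC subtraction these probes had a mean of 0.73, and the call lay elsewhere in the region. Oxsr1 marks the lower end, since its 1.28 was the lowest set mean of a called region, while the highest of a region not called was 2.00.

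A few genes had one tile under their own name and another without a name, so that both could be read side by side. The 23 genes with a whole-probe match lay in 23 regions, of which 3 were called, while 2 of the genes were called at their named probes. Over all, 6.79% of the 560 regions were called, 16.7% of those with 20 or more probes, and 14.01% of 17697 array names. St7, a gene first described as a tumour suppressor, stood at 2.63, 0.90, 3.82, 0.13 and 3.64 in 5 consecutive unnamed probes, and the highest set had a mean of 2.53 ± 2.08. Under its own name, 47509 bp away, the highest set of St7 was 0.56 ± 0.56, not called. The St7 call itself fell on the low probes between the high ones, because the rule reads a probe with its neighbours.

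Mapkap1 encodes Sin1, a subunit of the mTORC2 kinase complex. Its unnamed start site had probes at 2.61 and 1.92 and a set mean of 2.27 ± 0.49, against 0.61 ± 0.45 at the tile with its name, 17367 bp away. The promoter window of Mapkap1 in RefSeq, 300 bases with the matched probe in capitals, carries this start site (GRCm38.p6, chr2:34406601-34406900, plus strand):
Mapkap1 promoter: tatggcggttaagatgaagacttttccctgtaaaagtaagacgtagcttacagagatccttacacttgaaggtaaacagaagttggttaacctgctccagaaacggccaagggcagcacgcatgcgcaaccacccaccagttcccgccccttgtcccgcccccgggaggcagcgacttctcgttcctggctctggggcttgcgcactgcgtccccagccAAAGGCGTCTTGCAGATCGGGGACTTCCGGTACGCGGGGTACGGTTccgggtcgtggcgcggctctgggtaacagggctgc
The region next to it on chromosome 2, 22408 bp from the named Mapkap1 probes, was called as well, through a set poor in GC at 2.18 and 2.18 (chr2:34411143-34411198 and chr2:34411546-34411605), with a mean of 2.43 after GC subtraction. Atl2, an atlastin that shapes the endoplasmic reticulum, had 1.54, 1.87 and 1.96 at its unnamed start site, a mean of 1.79 ± 0.22, against 0.99 ± 0.26 under its older name Arl6ip2. The set lay 415 to 724 bp after the start, and the region was not called with all spots or after GC subtraction (highest set mean 0.82).

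Wnt5b, which encodes a secreted Wnt ligand, was matched by a probe end only. Its unnamed set had a mean of 2.35 ± 1.48, called, and the named tile 72141 bp away 0.61 ± 0.75, not called. After GC subtraction the unnamed set mean was 1.23 with 1 called probe. Ctbp2, a corepressor gene of the fixed list of Wnt and pluripotency genes, ran the other way. Its named tile was called at 2.40 ± 1.42 (3 called probes), whereas the 46 unnamed probes at another of its start sites gave a highest set of 0.80 ± 1.58, not called. That set was a single probe at 2.61 between 0.14 and -0.34, and the probe at 0.14 holds a CTTTGTT:
Ctbp2 probe at 0.14, chr7:129423570-129423625: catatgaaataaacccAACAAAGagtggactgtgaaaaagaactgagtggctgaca
Ctbp2 probe at 2.61, chr7:129423763-129423814: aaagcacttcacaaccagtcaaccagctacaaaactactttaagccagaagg
Pld5 (1.43 unnamed, 1.91 named and called) and the forkhead gene Foxp1 (1.27 and 1.05, neither called) differed by less than the spread within their sets. Over 21 genes with a set mean for both tiles, Wnt5b included, the unnamed tile was higher in 11 and the named tile in 10.

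The called regions poor in GC lay a median of 48810 bp from a named probe, close to the 47509 bp of those rich in GC. The highest, on chromosome 5, is 270092 bp from the nearest named gene, Sema3c. Its 2 called probes stood at 2.96 and 2.27 (mean 2.62 ± 0.49), and of 9 measured probes among its 32 the median was 1.78. After GC subtraction the highest set mean was 2.54, and 3 probes were called. A region of 6 probes on chromosome 2, 48810 bp from A330104H05Rik, had 2.78 and 1.95 in its called pair (mean 2.37 ± 0.58) and 2.62 after subtraction. With all spots 2 of its probes were called, at a highest set mean of 1.56.

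On chromosome 15, 10704 bp from the amino acid transporter gene Slc38a1, 4 called probes lay in a single region. Of these, 2 were poor in GC, at 2.83 and 1.85 (mean 2.34 ± 0.70), and 2 were rich in GC, at 1.79 and 1.79, nearer to the region's centre. After GC subtraction 2 probes were called and the highest mean was 2.47, but with all spots none was called and the highest mean was 1.61. The chromosome 6 region, 71328 bp from 2210010C04Rik, ended in 3 called probes at 2.59, 1.57 and 2.57 (mean 2.24 ± 0.58), and 3 probes of the region were called with all spots and after GC subtraction too. The last of them holds CTTTGAT, printed above in capitals. Besides the chromosome 2 set beside Mapkap1, the other sets of this kind, named after their values were seen, were lower. They lay on chromosome 14, 33560 bp from Mat1a (2.39 and 1.31, mean 1.85 ± 0.76), on chromosome 15, 95633 bp from Lass5 (2.46 and 1.09, mean 1.77 ± 0.97), on chromosome 5, 17871 bp from 1700028K03Rik (1.93, 2.68 and 0.66, mean 1.76 ± 1.02) and on chromosome 18, 1079397 bp from Csnk1g3 (mean 1.50 ± 1.42). With all spots 6 of the 9 regions poor in GC were called, all but those whose nearest names are Slc38a1, Mat1a and Csnk1g3. In the Lass5 region that call was 1 probe of 64.4% GC, outside the set given above. Surrogates made up 6 of the 8 called probes in the Sema3c region and 2 of the 4 in the 1700028K03Rik region.

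A region of mixed GC on chromosome 11, 9912 bp from Higd1b, had probes at 2.65, 1.74 and 2.50, with 62.2, 80 and 45.8% GC. Its mean was 2.30 ± 0.49, it matched no promoter window, and 3 probes were called after GC subtraction, at a highest mean of 1.83. Called regions also held probes near or below 0, as the median over all measured probes was 0.13 at St7, -0.13 at Wnt5b, 0.12 in the chromosome 15 region and 0.21 in the chromosome 6 region. The chromosome 5 and chromosome 2 regions had higher medians, of 1.78 and 1.56, over 9 of 32 and 4 of 6 probes. Probes whose signal was not above background are left out of these medians. With all spots, the probes left out ran from -0.51 to 2.22 on chromosome 5. On chromosome 2 they stood at -0.63 and -0.19.

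Where the regions held a placed start site, most calls with measured spots lay close to it. Positions relative to start sites came from the matched probes, as 99.4% of the 6061 windows with over 1 matched probe gave a single shift between array and GRCm38.p6 positions. Of 37 called unnamed probes with a start site in their own region, 27 lay within 500 bp of it (73.0%, against 60.6% of called named probes near a placed start site), 34 within 1000 bp and 3 farther away. From the start site to 500 bp after it, 20 of 331 tested unnamed probes were called (6.04%, against 4.51% of named probes). In the 500 bp before it the share was 2.05% (7 of 341), against 2.54%, and from 500 to 1000 bp after it 2.81% (7 of 249), against 1.57%. In the next bins none was called, with 0 of 181 from 1000 to 500 bp before the start and 0 of 326 from 1000 to 2000 bp after it, where named probes had 0.949% and 0.78%. After GC subtraction the share from the start site to 500 bp after it was 0.906% (3 of 331), against 1.31% of named probes, while the share was 0.587% in the 500 bp before it and ranged from 0 to 1.69% in the bins farther out. With 0 to 4 called members a bin, no excess near the start site was seen after the subtraction.

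Regions with a promoter match were called more often than those without, and they also had more probes (median 23 against 5). Of the 163 regions with a match 23 were called (14.1%), and of the 397 without one 15 (3.78%). Among regions of 20 or more probes, the shares were 17 of 99 (17.2%) and 10 of 63 (15.9%). Of the 94 regions with a lone probe, which the rule can call only beside a named probe, 0 were called.

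Some regions touch a tile with a gene name. In 75 regions the nearest named probe lay within 1000 bp, and 3 of them were called (4%, beside 6.79% of all regions), while 15 of these nearest names had a called probe, beside 14.01% of all names. Pax6, a transcription factor of eye and neural development, is the case on the fixed list. Its named probes were called at a highest mean of 2.64 ± 0.48 (6 called probes), and the unnamed region of 15 probes that begins 318 bp from them reached 2.35, 0.82 and 0.24 in its highest set (mean 1.14 ± 1.09), not called. After GC subtraction its mean was 1.30 and 1 probe was called. Of the 73 genes of the fixed list, Pax6 and Ctbp2 were the ones that touched an unnamed region. The microRNA gene Mir1931 was also touched, since 1 probe lay inside its hairpin (chr10:92721530-92721586). That probe had a surrogate signal, and the called probe of its region, at 2.91, lay elsewhere (chr10:92719410-92719454), in a set of mean 1.38 ± 1.44 that was not called with all spots or after GC subtraction.

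Of the 6 regions with the most probes, 2 were called, that of Bahd1 described above (44 probes) and that of Rasl11b, beside 16.7% of all regions with 20 or more probes. The largest, 48 probes on chromosome 17 at 1496783 bp from Fshr, had 4 measured probes, the highest at 0.69, none of them called. A region of 44 probes, 266775 bp from Slc8a1, had 10 measured probes up to 1.61, none called. The 45 probes at Foxp1 gave values from -1.04 to 2.19 with a median of 0.40, none called, and Rasl11b had 1 called probe among 46, with values from -0.82 to 2.71. At Ctbp2, 39 measured probes ranged from -0.94 to 2.61 with a median of -0.18. Low GC content and few measured spots went together in the first 2 of these, with 34.6 and 37.2% GC.

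Including surrogate spots changed which regions stood out. With all spots, 104 of 7541 unnamed probes were called (1.38%, beside 1.37% of all probes), and 46 of them had a surrogate Cy5 signal. On array 1 the share was 2.33% against 2.46%, and on array 2 it was 0.404% against 0.272%. They lay in 38 regions, of which 25 were also called with measured spots. A region on chromosome 5, 56469 bp from 2610020C11Rik, had the most, 13 called probes, of which 12 were surrogates, and a region on chromosome 6, 734760 bp from Lrrtm1, had 10, of which 8 were. Neither was called with measured spots. In 6 of the 38 regions every called probe was a surrogate, and in 24 none was.

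The 4 Tcf/Lef motifs were counted in the probes themselves on both strands, of which CTTTGTT also fits Sox proteins. Of all probes 5.69% held at least 1, and of unnamed probes 6.46%. Among unnamed probes called with measured spots it was 2 of 76 (2.63%, 95% Wilson interval 0.72 to 9.10%), against 203 of 3903 not called (5.20%), with median GC contents of 64.4 and 44%. After GC subtraction it was 7 of 64 called (10.9%, interval 5.40 to 20.9%), against 198 of 3915 not called (5.06%). Their median GC contents were 38.3 and 44%. In named probes the same shares were 6.53% and 4.46%. The lower bound of 5.40% lay just above the share of probes not called, but below the 5.69% of all probes and the 6.46% of all unnamed probes. The groups compared were not matched for GC content, and neighbouring probes of a region are not independent of each other. CGGCGGC was held by 4 of the 76 called unnamed probes (5.26%) and 5 of the 3903 not called (0.128%), and after GC subtraction by 0 of 64, which allows a share of up to 4.69% by a limit of 3 counts. In named probes it was 7.15% of those called. The octamer ATGCAAAT was found in 0 of 76 called probes, which allows up to 3.95% by the same limit, against 0.333% of those not called. Intervals and limits cover counting error only, and a match in a probe is a description of its letters.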

How the data were processed

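The regions, the gene list and the motifs were chosen with earlier results of these data known. Spots were read with Agilent Feature Extraction 9.1.1.1, and each deposited channel holds an intensity corrected by that software for background and dye, or a surrogate below background, per the file headers. As an alternative, the authors' log10 ratio column was used, which is the software's own value. The genome build of probe positions is not stated.

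Computed here was log2 of processed Cy5 over processed Cy3, centred on the median of each array over non-control spots measured in both channels, without non-uniform spots (9 on array 1, 18 on array 2). The scale was the median size of values below that median as a normal SD, 0.71 on array 1 and 0.68 on array 2. A probe was called when its set mean had a probability under 0.001 and one of these held: the probe itself was under 0.001 beside a neighbour under 0.1, or 2 of the set's probes were each under 0.005. The probabilities only serve this rule. The GC trend was the median per array in bins of 2%. With it subtracted, the scale was 0.58 on array 1 and 0.63 on array 2.

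Probe sequences were matched exactly, on the same chromosome and both strands, to RefSeq promoter windows and miRNA hairpins (GRCm38.p6). Array names were updated through RefSeq, 17791 of 18517 matched. Named are the 15 called regions with the highest set mean, those with the most probes (5, with ties 6), those at a gene of the fixed list or a microRNA gene, and the regions nearest the calling threshold as values. Others named in the text were chosen after their values were seen. The alternatives were planned, except for promoter matches by a probe end. The caller was tested on simulated data. Python 3.11.15, numpy 2.4.6, pandas 2.3.3, scipy 1.17.1 and, for normexp, limma 3.58.1 were used.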

Additional observations from a re-analysis of the deposited data

How the results depend on the processing

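Each value rests on a single array, so no alternative stands in for a replicate. No paired analysis was possible because the arrays carry different probes and there is a single group. Normexp background correction with an offset of 50 raised the called unnamed probes from 76 to 117 and their regions from 38 to 59, among them all 38, with 67 probes and 34 regions on array 1. Including surrogate spots gave 89 probes in 31 regions on array 1 and 15 probes in 7 regions on array 2, against 40 in 20 and 36 in 18 with measured spots. Subtraction of the GC trend gave 33 regions on array 1 and 14 probes in 8 regions on array 2. It lowered the median set mean of the 15 highest regions from 2.35 to 1.54, and normexp lowered it to 2.06. The cause was not tested, beyond the GC content given in the report. The log10 ratio column, set probabilities of 0.0001 and 0.01, a neighbour distance of 500 bp, a set mean of at least 1, the removal of marked or dim spots and joining at 500 or 2000 bp left 61 to 80 called probes in 33 to 41 regions. The median log2 ratio of the unnamed probes stayed between 0.01 and 0.03. Signals under background limit what can be read: 91 regions, with a median GC content of 35.7%, had no measured probe.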
